A study of Homo sapiens with 10 samples.

Results

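The difference that went with added glutamine in starved, arsenite-treated U2OS cells was measured in 6 of the 10 RNA-seq libraries of the series. U2OS is a human osteosarcoma line. The 3 EBSS+VBL+Gln+Ars libraries (glutamine-recovered cells) came from cells starved during 18 h of amino acids (AAs) and serum in EBSS, which holds salts and glucose, together with glutamine and with VBL, the microtubule drug vinblastine, and then given arsenite, an oxidative stressor that induces stress granules (SGs), for 50 min. The 3 EBSS+VBL+Ars libraries (starved cells) came from cells treated in the same way without glutamine. Starvation, VBL and arsenite were therefore common to both groups, and glutamine was the 1 labelled difference between them. The other libraries were 3 of arsenite alone (Ars) and 1 of untreated cells without a replicate, and their values are given only for scale. All groups are 1 cell line, and whether the libraries of a group came from separate cultures was not stated, so that p-values cover only the scatter among the libraries themselves, and this may be technical.

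Of 60671 genes listed, 12736 averaged 10 or more normalized counts across the 6 libraries and were tested, 11217 of them protein coding. A further 244 genes lay just below the limit, with means of 9 to 10, and 226 just above it, with means of 10 to 11. The values are read counts per gene divided by the size factor of the library. Reads counted on genes were 4452208 to 6323628 in glutamine-recovered libraries and 3538017 to 4993421 in starved libraries. The share of the signal recognition particle RNA RN7SL1 was 7.88 to 16.7% with glutamine and 11.7 to 20.2% without it. Protein-coding genes took 76.5 to 85.5% with glutamine and 70.8 to 80.3% without it. The osteoblast factors SP7 and DLX5 and the mesenchymal factor TWIST1 were at 0 in all 6 libraries. RUNX2, another osteoblast factor, was present and rose by 0.63, with 179.7, 181 and 175 normalized counts with glutamine against 116, 119 and 109 without it, a call lost after removal of the GC trend and with replicates 1 and 2 only. Mesenchymal markers such as VIM, SPARC and COL1A1 were abundant, and 9 of 15 markers of this lineage were tested. No blood marker out of 9 reached the limit, with a sum of 3.43 to 5.44 normalized counts with glutamine and 0 to 2.25 without it. Of 9 epithelial markers 3 were tested, and their list summed to 5112 to 5495 with glutamine and 7313 to 7815 without it, most of it KRT18. KRT18 was called at -0.60, and the call was lost in 9 of 20 alternatives, among them edgeR, DESeq2, equal totals, removal of the GC trend and the fits without glutamine-recovered replicate 1 or starved replicate 1.

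One library stood apart from its group. On the first principal component, which held 56.2% of the variance, the glutamine-recovered libraries lay at -31.6, -20.3 and -30.8 and starved replicates 2 and 3 at 39.1 and 31.7, but starved replicate 1 lay at 11.8. This library differed from its own replicates by the GC content of transcripts. Across 12724 genes, the correlation of the difference between libraries with transcript GC content was -0.39 for starved replicate 1 minus 2 and -0.42 for 1 minus 3, against 0.016 for 2 minus 3 (Pearson r, across genes, which are not independent replicates and here share library, depth and base composition). Counts without starved replicate 1 are therefore given beside those with it for most lists. GC content also went with differences within the glutamine-recovered group. There these correlations were -0.19 for replicate 1 minus 2, 0.20 for 1 minus 3 and 0.39 for 2 minus 3. Starved replicate 2 had the fewest reads. The library identifiers of both replicates 3 come earlier in the same series of numbers than those of replicates 1 and 2. What this order stands for was not stated. With replicates 1 and 2 only, 861 genes were called. The 2 libraries of replicate 3 alone give no test.

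**Figure D1:**
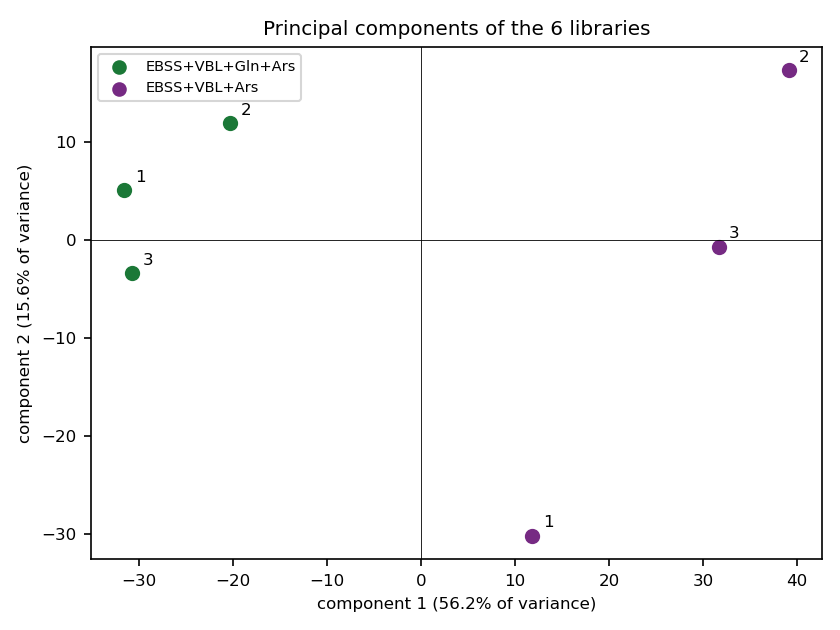
Principal components of log2(normalized count + 1) over the 12736 genes tested, 1 point for each of the 6 libraries, numbered by replicate, with green for EBSS+VBL+Gln+Ars and purple for EBSS+VBL+Ars. The groups separate on component 1 (56.2% of variance), and EBSS+VBL+Ars replicate 1 lies nearest to the other group on component 1, at 11.8, and lowest on component 2, at -30.2.

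Glutamine enters cells mainly through transporters of the plasma membrane such as SLC1A5. It gives nitrogen to nucleotides and to other AAs, and it is turned into glutamate, which feeds the TCA cycle as alpha-ketoglutarate. Cells that lack AAs activate the kinase GCN2, which slows translation but favours that of the transcription factor ATF4, and ATF4 in turn induces AA transporters and AA synthesis. Lack of AAs also inactivates the growth kinase complex mTORC1, which releases autophagy and lysosomal genes under the factor TFEB. How far the mRNAs of these programmes differed when only glutamine was added back is what the comparison measures.

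With glutamine, 18 of 52 DNA replication genes, 15 of 43 DNA repair genes and 25 of 68 mitosis genes were higher, as were 7 of 23 genes of branched-chain AA breakdown. Lower were 4 of 9 glutamine transporters, 8 of 32 ATF4 targets, 11 of 45 lysosomal genes and 10 of 29 immediate early genes. Of the 12736 genes tested, 2107 (16.5%) differed by 1.5-fold or more with an adjusted p under 0.05 (limma, Benjamini-Hochberg), and such genes are called higher or lower below. In EBSS+VBL+Gln+Ars cells 992 genes (7.79%) were higher and 1115 (8.75%) lower, 293 and 247 of them by at least 2-fold, and 28 and 19 by at least 3-fold. In 39.7% of genes tested the 2 groups did not overlap, 18.4% with all 3 glutamine-recovered libraries above and 21.3% with all 3 below. Without starved replicate 1 the counts were 1453 higher and 1536 lower, and 565 and 625 were higher without glutamine-recovered replicates 1 and 3. How the calls divide between higher and lower turns on how libraries are scaled. Rescaled to equal totals, which moved the median of all genes by 0.28 on the log2 scale, 2771 genes were higher and 339 lower. No gene called in the deposited scaling was called in the opposite direction, which a shift smaller than the 1.5-fold limit could hardly bring about. Log2 fold changes are on the log2(normalized count + 1) scale, on which changes of genes with few counts come out too small. In bulk RNA a lower level can mean fewer cells that express a gene or less RNA in each, and these cannot be told apart here.

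The change went with abundance and with base composition. Of genes that averaged 2000 normalized counts or more none was called higher by limma, whereas 68 of these 280 genes were called lower (9 higher and 23 lower with equal totals). Among genes with means of 30 to 100, 504 of 3834 were higher and 242 lower, with a median change of 0.13 on the log2 scale, and among genes with means of 1000 to 2000, 8 of 521 were higher and 120 lower, with a median of -0.29. By GC content, 331 of 1930 genes under 40% GC were higher and 30 lower, whereas 46 of 2079 genes at 60% GC and over were higher and 458 lower. Transcripts at 60% GC and over had median deviations from the mean of the 6 libraries of -0.15, -0.039 and -0.27 (log2) in glutamine-recovered libraries 1, 2 and 3, against -0.012, 0.23 and 0.28 in starved libraries 1, 2 and 3. Starved replicate 1 thus lay with glutamine-recovered replicate 2 in this class. For the 9 pairs of a glutamine-recovered with a starved library, the correlation across genes of the difference with GC content was -0.0033 to -0.27 against starved replicate 1 and -0.32 to -0.52 against the other two. When the GC trend was removed from each library, 785 genes were higher and 777 lower, and 1172 of the 2107 calls were kept. The part of library composition in the changes below was not tested further. Counts after this correction, and with equal totals, stand beside the main counts of most lists.

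**Figure D2:**
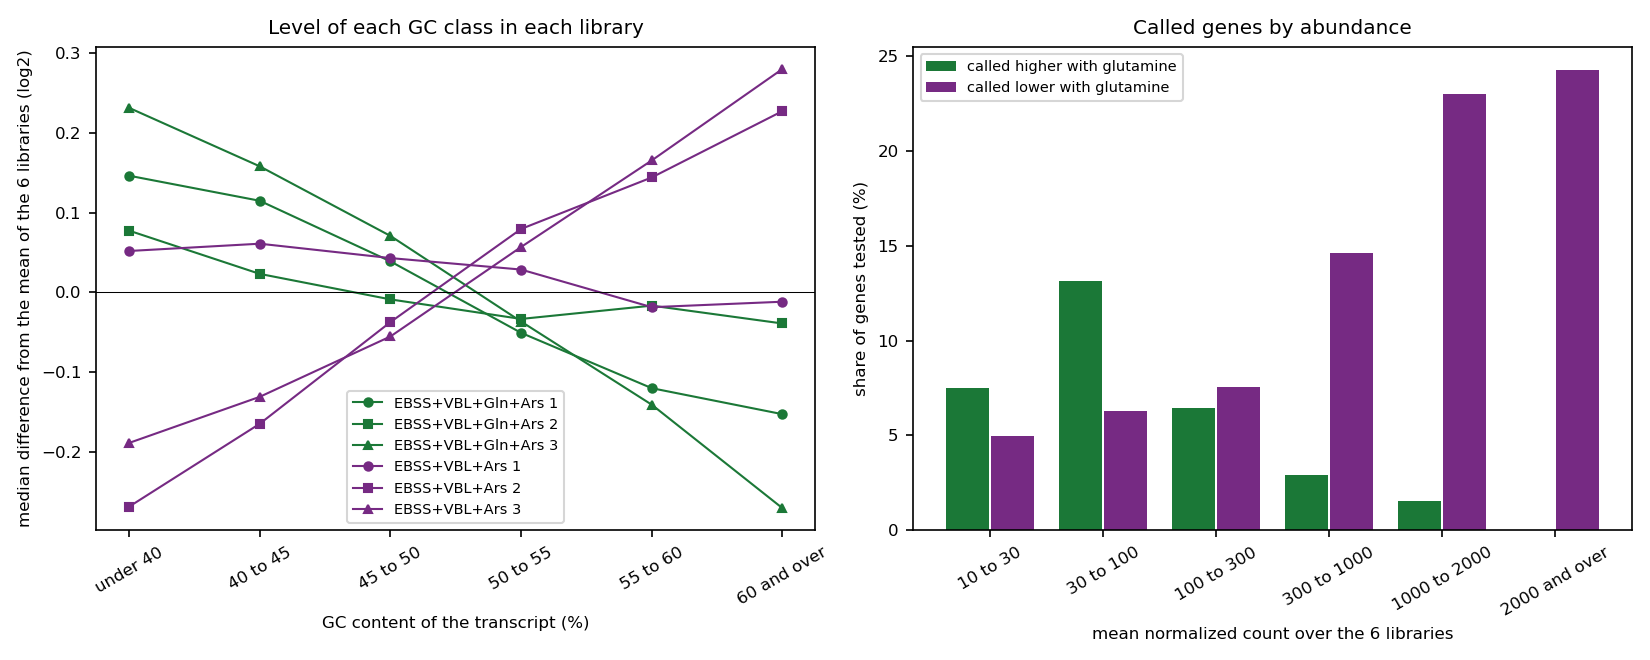
Left, median difference of each class of transcript GC content (%) from the mean of the 6 libraries (log2), 1 line for each library, with green for EBSS+VBL+Gln+Ars and purple for EBSS+VBL+Ars. Right, share of the genes tested (%) that were called higher (green) or lower (purple) with glutamine, by mean normalized count. Starved replicate 1 (purple circles) runs nearly flat, and called genes turn from mostly higher at means of 30 to 100 to only lower at 2000 and over.

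Several genes of glutamine uptake were lower in glutamine-recovered cells. Of 9 glutamine transporter genes tested, 4 were lower and none higher, where 8.75% of all genes were lower, and their median change was -0.54 against -0.0026 for all genes. SLC1A5, the main carrier of glutamine into many cancer cells (chromosome 19, 46774883 to 46788594, hg38), had 4646, 5312 and 4856 normalized counts in EBSS+VBL+Gln+Ars libraries, against 7282, 7690 and 8740 in EBSS+VBL+Ars libraries. The groups did not overlap, and the log2 fold change was -0.68 (SE 0.13, adjusted p = 0.000879, limma). Ars cells had 3020 ± 312 (SD, n = 3) and the untreated library 4316. SLC7A5, which exchanges internal glutamine for leucine and other large AAs, had 7683, 9721 and 8401 normalized counts with glutamine and 13848, 15521 and 16699 without it. It fell by 0.84 on the log2 scale, and its partner chain SLC3A2 differed by -0.54, short of 1.5-fold. SLC38A1, a sodium-coupled carrier, fell by 0.61 and the lysosomal carrier SLC38A7 by 0.70. SLC38A2, another sodium-coupled carrier, overlapped, with 909 to 1223 normalized counts with glutamine and 1091 to 1383 without it. None of the glutamine transport genes was called with equal totals, 2 were lower after the GC trend was removed, and 6 were lower without starved replicate 1. The call of SLC1A5 was lost with equal totals, with or without RN7SL1, with quantile normalization, after removal of the GC trend and with replicates 1 and 2 only, and that of SLC38A1 without starved replicate 3.

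Other AA carriers that were called were lower, and enzymes of glutamine were called in both directions. Of 15 other AA transport genes, 3 were lower and none higher, where 8.75% of all genes were lower and 7.79% higher. The glycine carrier SLC6A9 led, with 555, 684 and 590.0 normalized counts with glutamine against 956, 1168 and 1334 without it, a change of -0.91. The taurine carrier SLC6A6 and the lysosomal carrier SLC36A1 made up the rest. ASNS, which uses glutamine to make asparagine, fell by 0.71, and GFPT2, which passes its nitrogen to hexosamines, by 0.59. Among the 2 of 21 glutamine and glutamate enzymes that were higher, NIT2, which clears a product of glutamine transamination, had 75.8, 51.2 and 65.8 normalized counts with glutamine and 22.5, 26.2 and 13.3 without it. BCAT2, the mitochondrial branched-chain aminotransferase, rose by 0.71. GLUD1, which turns glutamate into alpha-ketoglutarate, was at 206 ± 21.7 with glutamine and 146 ± 24.9 without it (SD, n = 3 each), a difference of 0.50 that did not reach 1.5-fold. The call of GFPT2 was lost without glutamine-recovered replicate 1 or without starved replicate 1 or 2. With equal totals 3 of the other AA transport genes were higher and 1 lower, after removal of the GC trend 1 and 4, and without starved replicate 1, 1 and 3. Of the glutamine and glutamate enzymes these counts were 6 and 0, 2 and 2, and 4 and 2.

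ATF4 targets that were called were lower with glutamine, with 1 exception, though most were not called. Of 32 tested, 8 were lower and 1 higher, where 8.75% of all genes were lower, and the median was -0.34. In 18 of them all 3 glutamine-recovered libraries lay below all 3 starved ones, against 21.3% of all genes. TRIB3, a pseudokinase that restrains ATF4 signalling, had 2585, 3514 and 2810 normalized counts with glutamine, against 5112, 6630 and 6711 without it. The groups were well apart, and the log2 fold change was -1.05 (SE 0.14, adjusted p = 3.34e-05, limma), while Ars cells had 249 ± 13.1 (SD, n = 3). DDIT3, the pro-apoptotic factor CHOP, had 297, 272 and 295 normalized counts with glutamine and 638, 578 and 510.4 without it, a change of -0.99. GDF15, a secreted stress hormone, fell by 1.24, PHGDH, the first enzyme of serine synthesis, by 0.80, and the related transcription factor ATF5 by 0.75. ATF4 itself had 3912, 3548 and 3780 normalized counts with glutamine and 4849, 4491 and 4496 without it, a difference of -0.30 that was not called (adjusted p = 0.0688, limma). The 1 target that was higher was INHBE, a subunit of the activin family, with 62.8, 58.8 and 54.8 against 25.8, 24.4 and 29.8. With equal totals 6 ATF4 targets were higher and 3 lower, after removal of the GC trend 2 were higher and 6 lower, and without starved replicate 1, 2 were higher and 11 lower.

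ATF4 binds, with a C/EBP partner, to an element of the letters TGATGNAAN. Promoters of the genes were taken from RefSeq (build GRCh38.p14, 250 bases before to 50 after the start) and searched on both strands. The element was found in 3.61% of 35116 promoters of all genes, in 1.69% of 9662 promoters of genes tested, and in 6 of 25 promoters of ATF4 targets (24%). Of the 8 ATF4 targets that were lower, all had a promoter in the table and 1 held the element, that of ASNS. It is shown because asparagine synthetase is both a target of ATF4 and an enzyme that consumes glutamine. The promoter lies on the minus strand of chromosome 7 from 97872359 to 97872658, and the capitals mark the element TGATGAAAC, whose first base is 68 bases before the start.
ASNS: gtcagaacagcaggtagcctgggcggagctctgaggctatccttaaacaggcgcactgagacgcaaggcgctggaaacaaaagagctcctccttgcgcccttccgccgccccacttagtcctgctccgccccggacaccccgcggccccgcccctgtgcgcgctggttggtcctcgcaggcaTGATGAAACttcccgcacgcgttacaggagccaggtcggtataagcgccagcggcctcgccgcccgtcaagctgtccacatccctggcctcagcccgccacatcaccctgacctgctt
ASNS had 115, 132 and 110.3 normalized counts in EBSS+VBL+Gln+Ars libraries and 167, 232 and 191 in EBSS+VBL+Ars libraries. The groups did not overlap, and both lay above the 25.7 ± 5.73 of Ars cells (SD, n = 3). The element was not found in the windows of TRIB3, DDIT3, GDF15, PHGDH, ATF5, SLC7A5 or SESN2, which says only that these letters are not within these 300 bases.

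Some lysosomal genes were lower as well. Of 45 tested, 11 were lower and 2 higher, where 8.75% of all genes were lower, and the median was -0.35. Of them 25 did not overlap in the lower direction, against 21.3% of all genes. CLCN7, the chloride exchanger of the lysosome membrane, had 1280, 1556 and 1253.3 normalized counts with glutamine, against 2748, 3302 and 3636 without it. Its log2 fold change was -1.24 (SE 0.13, adjusted p = 3.00e-06, limma). ATP6V0D1, a subunit of the proton pump, fell by 1.06 and MCOLN1, a calcium channel that responds to starvation, by 1.07. CTSD, the protease cathepsin D, had 443, 413 and 369 normalized counts with glutamine and 715, 835 and 829 without it. TFEB, the transcription factor that drives many of these genes, had 61.7, 90.3 and 76.8 with glutamine and 162, 178 and 192 without it, a log2 fold change of -1.22. Of the lysosome list 11 genes were lower after removal of the GC trend too, and without starved replicate 1, 4 were higher and 8 lower. With equal totals 5 were higher and 5 lower. The members that rose were CTSL, the protease cathepsin L, with 103, 104 and 101 with glutamine and 68.5, 52.4 and 57.5 without it, and NAGLU, which degrades heparan sulfate.

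TFEB and its relatives bind a motif built on the E-box CACGTG, which was searched in the same windows (its reverse complement reads the same, and a match to it can overlap one to TGATGNAAN by at most 2 letters). It was found in 7.26% of all promoters, in 10.5% of those of genes tested and in 11 of 29 promoters of the lysosome list (37.9%). Of the 9 lower members with a promoter in the table, CLCN7, ATP6V0D1, CTSD, MCOLN1 and GAA held it. The promoters of the 3 with the smallest p are shown so that the place of the motif can be compared, a choice made after the shares had been seen. The capitals mark CACGTG, and all 3 genes lie on the minus strand. The CLCN7 promoter runs from 1474979 to 1475278 on chromosome 16, that of ATP6V0D1 from 67481108 to 67481407 on chromosome 16 and that of CTSD from 1763878 to 1764177 on chromosome 11.
CLCN7: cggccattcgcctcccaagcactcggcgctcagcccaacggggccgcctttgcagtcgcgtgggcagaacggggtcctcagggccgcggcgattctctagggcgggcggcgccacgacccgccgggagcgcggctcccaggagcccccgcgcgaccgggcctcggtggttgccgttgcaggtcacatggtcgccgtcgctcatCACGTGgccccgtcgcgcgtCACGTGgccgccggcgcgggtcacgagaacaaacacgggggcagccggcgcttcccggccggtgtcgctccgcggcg
ATP6V0D1: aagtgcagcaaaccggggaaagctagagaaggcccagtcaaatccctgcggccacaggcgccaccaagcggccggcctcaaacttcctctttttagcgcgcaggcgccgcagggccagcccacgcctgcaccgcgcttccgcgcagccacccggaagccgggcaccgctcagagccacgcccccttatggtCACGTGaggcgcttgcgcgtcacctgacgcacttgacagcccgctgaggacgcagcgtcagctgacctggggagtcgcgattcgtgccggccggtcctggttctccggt
CTSD: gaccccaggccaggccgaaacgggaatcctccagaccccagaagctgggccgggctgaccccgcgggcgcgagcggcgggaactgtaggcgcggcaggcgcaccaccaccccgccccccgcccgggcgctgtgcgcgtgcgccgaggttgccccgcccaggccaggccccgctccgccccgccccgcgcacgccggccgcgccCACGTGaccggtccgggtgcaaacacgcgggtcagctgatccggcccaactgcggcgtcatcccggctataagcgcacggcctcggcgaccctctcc
In CLCN7 the motif begins 47 and 27 bases before the start, in ATP6V0D1 59 and in CTSD 47 bases before it. A match is a description of the letters and does not show that a factor was bound.

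Autophagy genes fell in part. Of 38 tested, 7 were lower and 1 higher, where 8.75% of all genes were lower. The median was -0.13, and with equal totals 4 were higher and 2 lower. ATG2A, which moves lipid to the growing autophagosome, had 910.1, 1177 and 912 normalized counts with glutamine and 2361, 3173 and 3001 without it, a log2 fold change of -1.51 (SE 0.14, adjusted p = 6.65e-07, limma). ATG9A, the scramblase that works with it, fell by 1.07, the kinase gene ULK1 by 0.65 and the cargo receptor gene SQSTM1 by 0.62. MAP1LC3B, which encodes the LC3B protein of the autophagosome, overlapped, with 839 to 1042 normalized counts with glutamine and 962 to 1406 without it. The autophagy count was 3 lower without starved replicate 3, 8 lower without starved replicate 1 and 3 lower after removal of the GC trend. Of 31 mTORC1 regulators 5 were lower and none higher, among them SESN2, a leucine sensor that restrains mTORC1, with 2986, 3714 and 2807 against 4368, 5778 and 5577 normalized counts, and FLCN and WDR24, which act on the Rag GTPases. Of the mTORC1 list 3 genes were lower without starved replicate 3 and 6 without starved replicate 1, and with equal totals 3 were higher and none lower. After removal of the GC trend 2 mTORC1 genes were lower, but SESN2, FLCN, WDR24 and the others called before, CASTOR2 and AKT1S1, all lost their calls there. SQSTM1 and ULK1 lost their calls without starved replicate 3, ULK1 also without glutamine-recovered replicate 3, and FLCN without glutamine-recovered replicate 1 or 3 or starved replicate 2 or 3.

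Genes of DNA replication were often higher with glutamine. Of 52 tested, 18 were higher and none lower, where 7.79% of all genes were higher, and their median change was 0.50. MCM6, a subunit of the replicative helicase, had 160.2, 118 and 138 normalized counts in EBSS+VBL+Gln+Ars libraries, against 60.6, 61.1 and 58.6 in EBSS+VBL+Ars libraries. Its log2 fold change was 1.18 (SE 0.17, adjusted p = 7.27e-05, limma), and Ars cells had 254 ± 2.94 (SD, n = 3). CDC6, which loads the helicase, had 174, 151 and 159 with glutamine and 87.6, 54.1 and 72.9 without it, and PRIM1, the catalytic subunit of primase, rose by 1.51. PCNA, the sliding clamp, overlapped, with 195 to 240.2 with glutamine and 119 to 213 without it. Of the DNA replication list 15 genes were higher after removal of the GC trend, 24 without starved replicate 1, 34 with equal totals and 8 with replicates 1 and 2 only.

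Of DNA repair and nucleotide synthesis genes, more were called higher than lower. Of 43 DNA repair genes 15 were higher and none lower, where 7.79% of all genes were higher, and the median was 0.50. FANCD2, a hub of cross-link repair, had 167, 147 and 138 normalized counts with glutamine and 109, 64.6 and 50.8 without it, and PMS2, of mismatch repair, 68.2, 67.5 and 67.2 against 34.8, 20.9 and 18.8. PMS2 has pseudogenes with which it may share reads. After removal of the GC trend 11 DNA repair genes were higher, without starved replicate 1, 20, with equal totals 28 and with replicates 1 and 2 only 4. Of 22 nucleotide synthesis genes 4 were higher and 1 lower. TYMS, which makes thymidylate, had 769, 699 and 776 normalized counts with glutamine and 477, 388 and 399 without it, a log2 fold change of 0.83 (SE 0.12, adjusted p = 7.93e-05, limma). PAICS and PPAT, enzymes of purine synthesis of which PPAT takes its nitrogen from glutamine, were called at 0.61 and 0.74, but their groups overlapped. RRM2B, the p53-induced subunit of ribonucleotide reductase, fell by 0.59. Without glutamine-recovered replicate 1, 2 nucleotide synthesis genes were higher, since PPAT and PAICS lost their calls. PPAT was also lost when glutamine-recovered replicate 2 or 3 or starved replicate 2 or 3 was left out, PAICS without starved replicate 2 or 3, and RRM2B without glutamine-recovered replicate 3 or starved replicate 1. Of the nucleotide synthesis list 6 genes were higher and none lower without starved replicate 1, 12 higher and none lower with equal totals, and 2 higher and 1 lower after removal of the GC trend.

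Mitosis genes had 25 members higher and 1 lower of 68, where 7.79% of all genes were higher, and the median was 0.38. CENPH, a protein of the inner kinetochore, had 101, 72.9 and 80.9 normalized counts with glutamine, against 28.1, 12.2 and 16.6 without it, a log2 fold change of 2.17 (SE 0.27, adjusted p = 1.33e-05, limma). NDC80, of the outer kinetochore, had 382, 322 and 386 with glutamine and 226, 150.2 and 157 without it, and was at 277 ± 30.9 in Ars cells. HMMR, a spindle protein, rose by 1.39. The exception was MAD1L1, of the spindle checkpoint, with 77.9, 90.3 and 80.9 against 235, 229 and 243. The mitosis list has a low median GC content of 42%, and removal of the GC trend left 11 genes higher and 1 lower. With replicates 1 and 2 only 6 were higher, whereas 16 were higher without glutamine-recovered replicate 3 and 32 without starved replicate 1. With equal totals 39 were higher and 1 lower. VBL, present in both groups, acts on the spindle, and its part in these levels was not tested.

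Part of the p53 targets fell. Of 28 p53 targets 10 were lower and 1 higher, where 8.75% of all genes were lower, and the median was -0.39. CDKN1A, the inhibitor p21, had 2261, 2582 and 2311 normalized counts with glutamine, against 3572, 3978 and 4617 without it, a log2 fold change of -0.76 (SE 0.13, adjusted p = 0.000225, limma). PHLDA3, which opposes AKT, had 457, 559.5 and 414 with glutamine and 1040, 1336 and 1223 without it. The damage recognition gene DDB2 fell by 0.80 and AEN, an apoptotic nuclease, by 0.71. The exception was TP53I3, an oxidoreductase, with 246, 212 and 204 against 135, 124 and 144. With equal totals 2 p53 targets were lower and 1 higher, after removal of the GC trend 7 and 1, and without starved replicate 1, 12 and 2. Of 30 genes of G1 and S control 5 were higher and 1, CDKN1A, was lower, where 7.79% of all genes were higher. CCNE1, cyclin E1, had 152, 151 and 147 against 78.6, 96.0 and 81.8 normalized counts, and E2F2 and RBL1 were higher as well, while CCND1, cyclin D1, was at 251 to 317 with glutamine and 279 to 305 without it. Of 25 genes that promote apoptosis 6 were lower and 2 higher. BAX, which permeabilizes mitochondria, fell by 0.66 and BBC3, the p53-induced activator PUMA, by 0.72. BIK, another activator, rose by 1.65 at few counts and with a wide spread, at 26.8 ± 2.33 with glutamine against 10.4 ± 10.2 without it (SD, n = 3 each), and CASP8, an initiator caspase, rose by 0.60. Apoptosis genes that were lower numbered 3 after removal of the GC trend and 2 with equal totals. Without starved replicate 1, 8 were lower. The G1 and S list had 7 higher and 1 lower without starved replicate 1, 9 higher and none lower with equal totals, and 6 higher and 2 lower after removal of the GC trend.

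**Figure D3:**
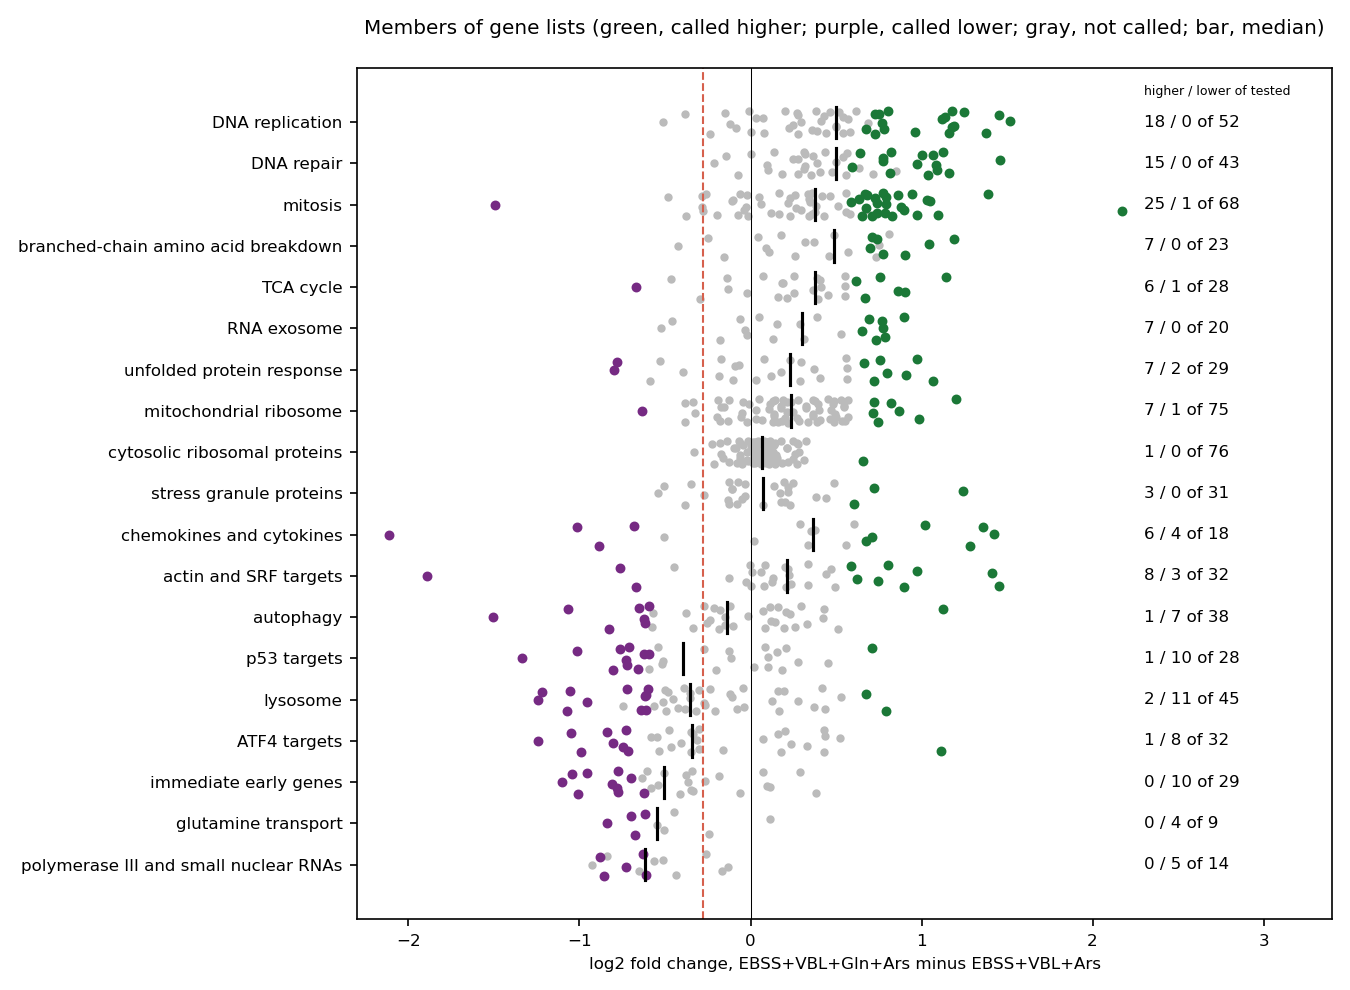
Log2 fold change (EBSS+VBL+Gln+Ars minus EBSS+VBL+Ars) of every tested member of 19 gene lists, 1 point for each gene, green where called higher, purple where called lower and gray where not called, with a black bar at the list's median. The right margin gives the members called higher and lower of those tested, and the dashed line at -0.28 marks where 0 would lie with libraries of equal totals. DNA replication, DNA repair and mitosis lie to the right, with medians of 0.50, 0.50 and 0.38, and immediate early genes and glutamine transport to the left, with medians of -0.51 and -0.54.

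Some mitochondrial enzymes of AA breakdown rose. Of 23 branched-chain AA breakdown genes 7 were higher and none lower, where 7.79% of all genes were higher, and the median was 0.49. The count higher was 5 after removal of the GC trend, 4 without glutamine-recovered replicate 1, 9 without starved replicate 1 and 14 with equal totals. MCCC2, of leucine breakdown, had 200.2, 219 and 224 normalized counts with glutamine, against 130.3, 112 and 102 without it, and ALDH6A1, of valine breakdown, 77.9, 101 and 97.3 against 44.9, 36.7 and 37.6. ALDH7A1, of lysine breakdown, was among the 20 largest rises, at 212, 140.4 and 177 against 70.8, 64.6 and 74.0. Of 28 TCA cycle genes 6 were higher and 1 lower, with a median of 0.38. IDH2, the mitochondrial isocitrate dehydrogenase, had 141, 142 and 151 with glutamine and 70.8, 68.1 and 56.4 without it, a log2 fold change of 1.15 (SE 0.17, adjusted p = 6.81e-05, limma). The succinyl-CoA ligase genes SUCLG1, SUCLG2 and SUCLA2 rose by 0.62, 0.90 and 0.86. PC, pyruvate carboxylase, which refills the cycle from pyruvate rather than from glutamine, fell to 358, 384 and 307, against 486, 541 and 652. OGDH, which takes in alpha-ketoglutarate, was not called, at 239 to 288 with glutamine and 300.3 to 364 without it. The TCA cycle count was 2 higher after removal of the GC trend, 10 higher without starved replicate 1, 15 higher with equal totals and 3 higher without glutamine-recovered replicate 1. PC and SUCLG1 lost their calls without either library of replicate 3, SUCLG1 also without glutamine-recovered replicate 1 or starved replicate 2, and SUCLA2 without glutamine-recovered replicate 2.

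Genes of the respiratory chain, the mitochondrial ribosome and glycolysis were more often called higher with equal totals than at the deposited scaling. This held for all genes too, of which 7.79% were higher at the deposited scaling and 2771 of 12763 with equal totals. Of 65 respiratory chain genes 3 were higher and none lower, but 8 were higher without starved replicate 1, 1 without starved replicate 3 and none without glutamine-recovered replicate 1. Of 13 mRNAs encoded in mitochondrial DNA 3 had an unadjusted p under 0.05 (limma), against 4864 of all 12736 genes tested. None of the 13 was called by limma, edgeR or DESeq2, and limma called 3 lower without starved replicate 1. Of 75 genes of the mitochondrial ribosome 7 were higher and 1 lower, with a median of 0.24, and 20 were higher without starved replicate 1 and 4 without glutamine-recovered replicate 1. MRPL17 had 200.2, 174 and 204 normalized counts with glutamine and 82.0, 80.3 and 87.3 without it. UCP2, a carrier of the inner membrane that exports C4 metabolites, had 305, 304 and 278 against 103, 129 and 139, a log2 fold change of 1.26. Of 23 glycolysis genes 4 were higher and 1 lower. SLC2A1, the glucose transporter GLUT1, had 879, 897 and 974 normalized counts in EBSS+VBL+Gln+Ars libraries, against 586, 555 and 678 in EBSS+VBL+Ars libraries, with no overlap and a log2 fold change of 0.60 (SE 0.12, adjusted p = 0.0012, limma). This change lay at the 1.5-fold limit, and the call was lost without glutamine-recovered replicate 3, without starved replicate 1 and without starved replicate 2. The count of glycolysis genes that were higher was 2 when any 1 of these 3 libraries, or glutamine-recovered replicate 1, was left out. LDHA, which makes lactate, rose by 0.60 and PDK1, which blocks pyruvate entry into mitochondria, by 1.03, whereas HK1, a hexokinase, fell by 0.66. HK1 lost its call without starved replicate 1, and LDHA without glutamine-recovered replicate 1 or 3 or starved replicate 2 or 3. With equal totals 19 respiratory chain genes, 30 mitochondrial ribosome genes and 6 glycolysis genes were higher and none of them lower. After removal of the GC trend these counts were 2, 8 and 3 higher and none lower, and 1 mitochondrial DNA-encoded mRNA was lower.

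Several immediate early genes, the first to be transcribed after a stimulus, were lower with glutamine. Of 29 tested 10 were lower and none higher, where 8.75% of all genes were lower, and the median was -0.51. JUN had 1308, 1417 and 1201 normalized counts with glutamine, against 2354, 3164 and 2615 without it, a log2 fold change of -1.04 (SE 0.13, adjusted p = 1.20e-05, limma). FOSL1, its AP-1 partner, had 806, 978 and 919 with glutamine and 1610, 1879 and 1956 without it. FOSB fell by 1.10, JUND by 0.78, FOS by 0.77, the zinc finger factor EGR1 by 0.77 and the ERK phosphatase DUSP5 by 0.95. Of the immediate early list 8 were lower and 1 higher after removal of the GC trend, 13 were lower without starved replicate 1, and with equal totals 4 were lower and 1 higher. EGFR, a receptor upstream of this response, was among the 20 largest falls, with 139, 156 and 167 against 427, 325 and 397.

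Cytokine genes split in 2 directions. Of 18 tested, 6 were higher and 4 lower, where 7.79% of all genes were higher and 8.75% lower. CXCL8, which attracts neutrophils, had 303, 274 and 365 normalized counts with glutamine, against 137, 99.5 and 129 without it, and 4.60 ± 2.37 in Ars cells (SD, n = 3). The monocyte attractant CCL2 had 182, 151 and 171 against 83.1, 62.9 and 60.8, and CCL20, which attracts lymphocytes, rose by 1.02. TNF, which activates NF-kB, was low but rose, with 20.6, 22.9 and 27.4 against 4.49, 10.5 and 11.1. The mean levels of CXCL8, CCL2, CCL20 and TNF were each higher in glutamine-recovered cells than in starved, Ars or untreated cells. CCL20 lost its call without glutamine-recovered replicate 3. IL24, a cytokine of the IL-10 family, had 62.8, 77.3 and 67.2 with glutamine and 348, 276 and 283 without it, a log2 fold change of -2.11 (SE 0.16, adjusted p = 7.13e-08, limma). CCL3, another monocyte attractant, had 368, 396 and 356 against 696, 602 and 780.0, and its near-identical copy CCL3L3, with which it may share reads, also fell. Without starved replicate 1, 5 were higher and 4 lower, and without glutamine-recovered replicate 2, 5 were higher and 2 lower. In the NF-kB pathway 3 of 24 genes were higher and 2 lower, beside the same shares of all genes. The pathway had 4 lower without glutamine-recovered replicate 2, 4 higher and 1 lower without starved replicate 2 and 2 higher without glutamine-recovered replicate 3. TRAF1, an adaptor of TNF receptors, had 1219, 1434 and 1222 with glutamine and 649, 917 and 766 without it, and NFKB1 rose by 0.69, while RELB, another subunit, was at 1617 ± 275 against 2277 ± 133 (SD, n = 3 each), a difference of -0.51 that did not reach 1.5-fold. With equal totals 11 cytokine genes were higher and 2 lower and 6 NF-kB pathway genes higher and none lower, and after removal of the GC trend these counts were 6 and 4, and 4 and 1.

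Several chaperones of the endoplasmic reticulum rose, and the stress sensor ERN1 fell. Of 29 unfolded protein response genes 7 were higher and 2 lower, where 7.79% of all genes were higher and 8.75% lower. HSP90B1, which encodes the chaperone GRP94, had 669, 517 and 676 normalized counts with glutamine, against 350.4, 285 and 309 without it, and PDIA4, a disulfide isomerase, 222, 169 and 157 against 93.2, 87.3 and 77.3. PDIA3, PDIA6 and CRELD2 rose by 0.76, 0.80 and 0.72. ERN1, the sensor IRE1, fell by 0.80, and HSPA5, the chaperone BiP, was at 705 to 742 against 598 to 665, which was not called. The list had 8 higher and 3 lower after removal of the GC trend, 10 higher and 2 lower without starved replicate 1, and 12 higher and none lower with equal totals. Of 22 heat shock genes 7 had an unadjusted p under 0.05 (limma), against 4864 of all 12736 genes tested. None of the 22 was called by limma, and edgeR called 1 and DESeq2 none. Without glutamine-recovered replicate 2, limma called 3 of them lower, without starved replicate 1, 2 lower, and with equal totals 3 higher. Cytosolic ribosomal proteins lay close together, with 1 of 76 higher and a median of 0.06.

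SG protein genes were included because arsenite induces SGs. Of 31 SG protein genes 3 were higher and none lower, with a median of 0.07, where 7.79% of all genes were higher and 8.75% lower. G3BP1, the scaffold of the granule, had 699, 695 and 684 normalized counts with glutamine and 699.8, 538 and 584 without it, and its relative G3BP2 had 207, 234 and 236 against 295, 213 and 238. The groups overlapped for both, with log2 differences of 0.20 (SE 0.12) and -0.13 (SE 0.14). TIA1, a granule protein with a prion-like domain, had 70.3, 68.6 and 74.0 with glutamine and 30.3, 27.9 and 29.8 without it, a log2 fold change of 1.25 (SE 0.21, adjusted p = 0.000217, limma). CAPRIN1, which binds G3BP1, was called at 0.60 with groups that overlapped, a call lost without glutamine-recovered replicate 1 or 3 or starved replicate 2 or 3. Of 20 RNA exosome genes, which degrade RNA, 7 were higher and none lower. Among them was MTREX, the exosome's helicase, at 183, 167 and 163 against 116, 92.5 and 91.7, a call lost after removal of the GC trend. The RNA exosome count was 4 without glutamine-recovered replicate 1 or 3, 2 after removal of the GC trend and 1 with replicates 1 and 2 only. Without starved replicate 1 it was 7 higher and 1 lower, and with equal totals 10 higher. The SG list had 4 higher without starved replicate 1, 6 with equal totals and 2 after removal of the GC trend.

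MYC, which drives genes of glutamine use in many tumours, had 1408, 1494 and 1492 normalized counts in EBSS+VBL+Gln+Ars libraries, against 2148, 2031 and 2070 in EBSS+VBL+Ars libraries and 278 ± 0.603 (SD, n = 3) in Ars cells. The groups did not overlap, but the log2 difference of -0.51 (SE 0.11, adjusted p = 0.00242, limma) was under 1.5-fold and was not called. Of 12 genes of the MYC network 3 were lower and 1 higher, where 8.75% of all genes were lower and 7.79% higher. The antagonists MXD4, MNT and MXD1 fell by 0.79, 0.75 and 0.59, and TXNIP was higher with groups that overlapped. TXNIP lost its call without glutamine-recovered replicate 1 or 3 or starved replicate 2 or 3, and MXD1 without glutamine-recovered replicate 1 or 2 or starved replicate 3. ODC1, the first enzyme of polyamine synthesis and a known target of MYC, moved the other way, with 2091, 1800 and 1985 normalized counts with glutamine against 1084, 1020 and 908 without it, a log2 fold change of 0.96 (SE 0.12, adjusted p = 1.22e-05, limma). SMOX, which breaks spermine down, fell by 0.90. Of the MYC network 4 genes were lower and 1 higher without starved replicate 1, none lower and 1 higher with equal totals, and 1 lower after removal of the GC trend.

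**Figure D4:**
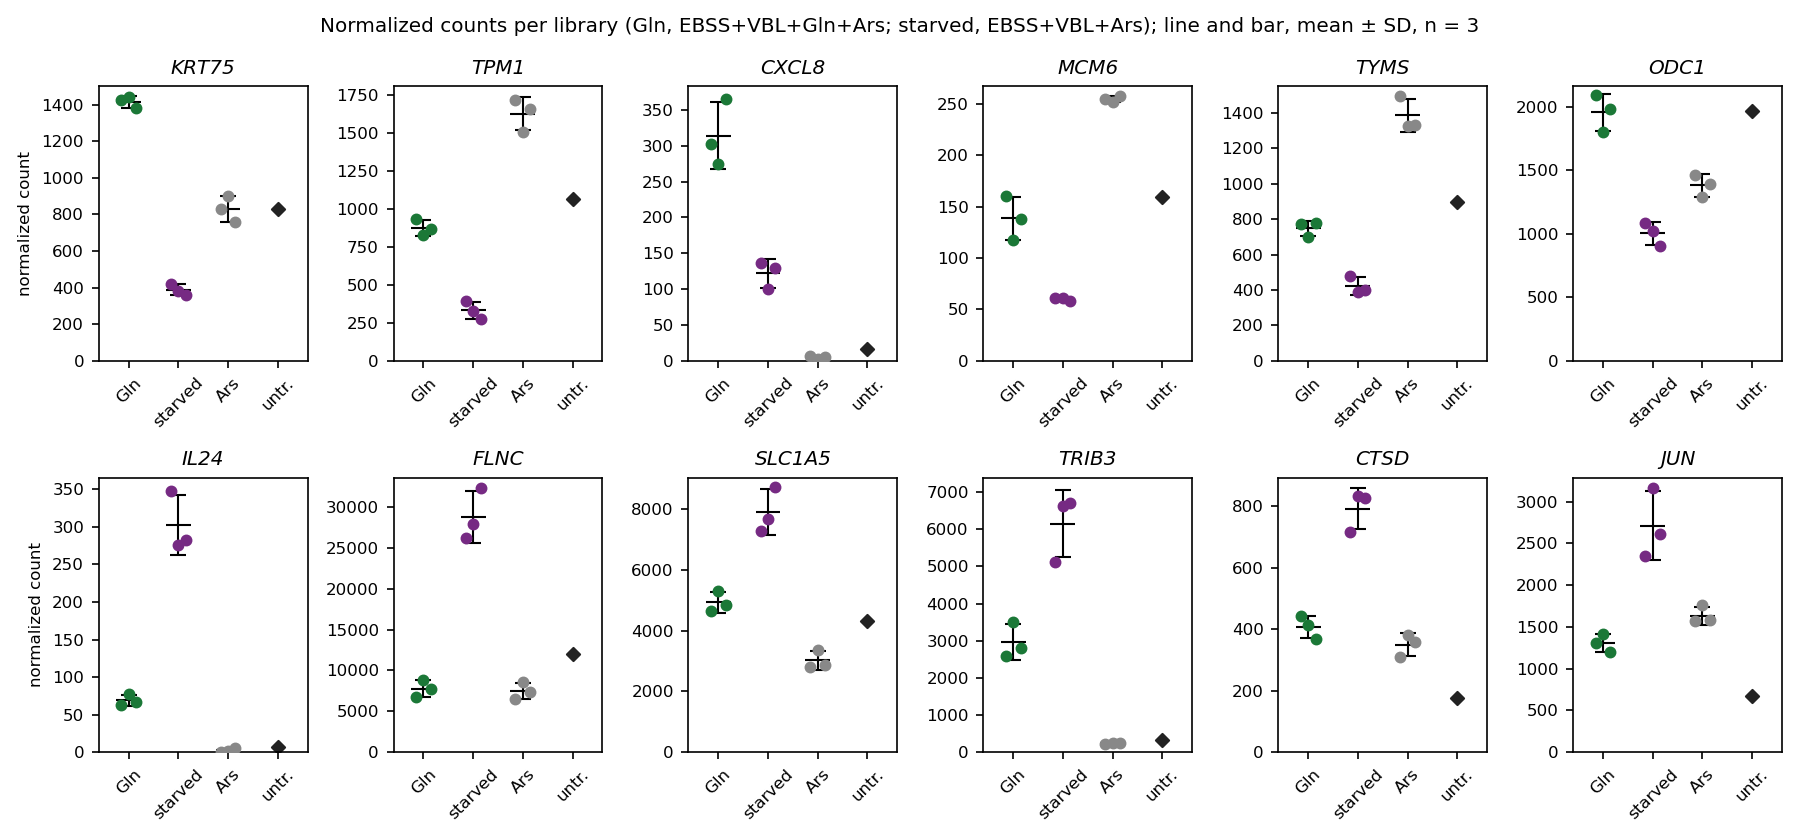
Normalized counts of 12 genes in every library (linear axis from 0), with 3 points and mean ± SD (n = 3) for EBSS+VBL+Gln+Ars (green), EBSS+VBL+Ars (purple) and Ars (gray), and a diamond for the single untreated library. The glutamine-recovered libraries lie above all starved ones for the upper 6 genes, as for ODC1 (1800 to 2091 against 908 to 1084), and below them for the lower 6, as for CTSD (369 to 443 against 715 to 835).

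Genes of the cytoskeleton were called in both directions. KRT75, a keratin, had 1425, 1442 and 1381 normalized counts with glutamine, against 419, 384 and 359 without it, and 829 ± 71.5 in Ars cells (SD, n = 3). Of 32 actin genes and targets of SRF, a factor that responds to actin, 8 were higher and 3 lower. Of all genes 7.79% were higher and 8.75% lower. The actin and SRF count was 5 higher without starved replicate 2, and 1 lower without starved replicate 3 or without glutamine-recovered replicate 1 or 3. Without starved replicate 1, 9 were higher and 3 lower, with equal totals 13 and 1, and after removal of the GC trend 6 and 2. The smooth muscle genes TAGLN and CNN1 rose by 0.98 and 0.80, and TAGLN had 2581, 2469 and 2516 against 1405, 1198 and 1251.8. TPM1, a tropomyosin that runs along actin filaments, had 929.6, 828 and 866 with glutamine and 389.8, 330.0 and 275 without it. FLNC, which cross-links the filaments, went the other way, with 6730, 8824 and 7724 against 26168, 27860 and 32290, a log2 fold change of -1.89 (SE 0.16, adjusted p = 1.65e-07, limma). Of the caveola genes, CAVIN1, the coat protein, had 2440, 2648 and 2453 with glutamine and 7605, 7451 and 6530 without it, whereas CAV1, the membrane protein it coats, rose by 0.81, with 126, 104 and 108 against 73.0, 61.1 and 57.5. The call of CAV1 was lost after removal of the GC trend and with replicates 1 and 2 only.

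Among 38 collagen and matrix genes 7 were higher and 8 lower, where 7.79% of all genes were higher and 8.75% lower. These counts were 7 and 9 without starved replicate 1, 11 and 5 with equal totals, and 7 and 6 after removal of the GC trend. LAMB3, a laminin subunit, had 1617, 1900 and 1703 normalized counts with glutamine, against 3247, 3230 and 3391 without it, a log2 fold change of -0.92. COL6A2, a chain of microfibrillar collagen, fell by 1.05, and LOX, which cross-links collagen, rose by 1.26. TIMP1, an inhibitor of matrix proteases, had 4735, 4572 and 4855 with glutamine and 11316, 12397 and 12309 without it, and its relative TIMP3 rose by 0.80. The growth factors TGFB2 and INHBA, of the TGF-beta family, had 417, 456 and 465 against 211, 175 and 168, and 242, 253 and 284 against 117, 115 and 93.9. The calls of LAMB3, COL6A2, LOX, TIMP1, TIMP3, TGFB2 and INHBA were kept in all 20 alternatives tried. The abundant genes that were lower also included PLXNB2, a semaphorin receptor, HMGA1, a chromatin protein, and AGRN, a proteoglycan, with log2 fold changes of -1.26, -1.23 and -1.12.

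The counts of further lists stand against 7.79% of all genes higher and 8.75% lower at the deposited scaling. With equal totals 2771 of 12763 genes were higher and 339 lower. Of 51 splicing genes 5 were higher and 1 lower, but 11 were higher without starved replicate 1, 8 without glutamine-recovered replicate 2, 3 without glutamine-recovered replicate 1 or 3 and 2 without starved replicate 3. Of 68 ribosome biogenesis genes 5 were higher and 2 lower, with 14 higher without starved replicate 1 and 3 without starved replicate 3. With equal totals 13 splicing genes and 25 ribosome biogenesis genes were higher and none lower, and after removal of the GC trend 2 splicing genes were higher and 2 lower, and 1 ribosome biogenesis gene was higher. Among 17 genes of serine and one-carbon metabolism, MTHFD1 and MTR, which carry and use folate-bound carbon, rose by 0.79 and 0.92, and PHGDH was lower, a count of 2 higher and 1 lower that became 7 and 0 with equal totals and 3 and 1 after removal of the GC trend. Of 20 tRNA synthetases 2 were higher, with 4 without starved replicate 1, 1 without glutamine-recovered replicate 3 or starved replicate 2 or 3, 6 with equal totals and none after removal of the GC trend. Of 26 genes of the metal response and of NRF2, the factor of the oxidative stress response, 1 was higher and 1 lower. ME1, the higher one, lost its call after removal of the GC trend, with replicates 1 and 2 only, and without glutamine-recovered replicate 1 or 3. OSGIN1, which restrains growth, was the lower one, with 189, 211 and 195 normalized counts with glutamine against 438, 619.9 and 580.0 without it. With equal totals 4 genes of this list were higher and 1 lower, and after removal of the GC trend none and 1. Of 20 fatty acid synthesis genes 6 had an unadjusted p under 0.05 (limma), against 4864 of all 12736 genes tested. None of the 20 was called by limma, edgeR or DESeq2, and limma called 5 higher with equal totals. Of 14 interferon-stimulated genes IFIT5, OAS3 and GBP2 were higher, by 1.57, 1.18 and 1.31, and ISG20 fell by 0.65. The count higher was 4 without starved replicate 1, 1 without starved replicate 2, 2 after removal of the GC trend and 5 with equal totals. OAS3 kept its call in all 20 alternatives. IFIT5 lost it without replicate 3 of either group or without starved replicate 2, GBP2 without replicate 2 of either group and after removal of the GC trend, and ISG20 without replicate 3 of either group.

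Many small structured RNAs were lower with glutamine, and the medians of their classes were highest in starved replicate 2. Of 140 genes of the class that holds 7SL, 7SK and Y RNAs, 57 were lower and none higher, with a median of -0.66, and 18 were lower with equal totals. These include 34 of 97 copies and pseudogenes of 7SL (53 without starved replicate 1 and 6 with equal totals) and 17 of 29 of 7SK, which share reads with their parent genes, so that single copies are uncertain. RNY1, a Y RNA, had 483, 379.9 and 334 normalized counts with glutamine, against 749, 1261 and 1019 without it. Of 74 snoRNA genes 35 were lower and none higher, with 5 lower with equal totals, and the median of this class lay at 0.65 above the mean of the 6 libraries in starved replicate 2 and at -0.12 and 0.28 in replicates 1 and 3, against -0.053, -0.47 and -0.37 in the glutamine-recovered libraries. RNU4-2, a spliceosomal RNA, was called at -0.63 although its groups overlapped, with 29515, 17894 and 23651 against 25285, 44361 and 40933, and the call was lost when replicate 2 or 3 of either group was left out. RN7SL1, with 341516 to 804252 normalized counts with glutamine and 643563 to 1246240 without it, was not called. Of 24 snoRNA host genes 4 were lower, led by SNHG10 and DANCR, and 7 without glutamine-recovered replicate 2. DUX4L26, one of several near-identical DUX4-like copies called higher, had 1038, 1361 and 957 against 331, 644 and 467, and reads cannot be assigned to one copy with certainty.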

How the data were processed

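Total RNA was depleted of ribosomal RNA and sequenced as 10 libraries of U2OS cells. STAR (alignment), HTSeq (gene counts) and DESeq2 (size factors) are the authors' tools per the labels, on build hg38, and versions and the strand setting of counting are not given in the sources used here, so that overlapping and antisense genes are uncertain. The deposited values are a signal in the sense of read counts divided by a size factor per library. They are whole multiples of 1 step per library (100% of values within 0.01 of a whole read), which gave back the reads. No column was left out. Gene types, positions and GC content of the exons were taken from GENCODE release 44.

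Genes with a mean of at least 10 over the 6 libraries were compared on log2(value + 1) with limma 3.58.1 in R 4.3.3 (trend, two-sided, Benjamini-Hochberg over all 12736 genes), and called at an adjusted p under 0.05 and 1.5-fold. The methods' thresholds were used. Named genes are MYC, SLC1A5, SLC2A1, G3BP1 and G3BP2, the 20 largest rises and falls with means of at least 100 and no overlap, the 10 largest of each with means of at least 2000, and of each list the called members with the smallest p, with members whose role the text needs. The gene lists and the members were chosen with earlier results of these data known. Lists are described by counts and medians, with no test of the list.

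On simulated counts, the fit found 28% of 1.5-fold, 66% of 2-fold, 96% of 3-fold and 94% of 4-fold changes (50 genes each) and called 0.0566% of unchanged genes. These counts were drawn independently for each gene, without a GC trend or a library that stood apart. The rates therefore need not hold for the real libraries. The 20 alternatives were other pseudocounts, filters and scalings, edgeR 4.0.16 and DESeq2 1.42.0 on the recovered reads, a fit over the 3 replicated groups, a replicate block, removal of the GC trend (loess, span 0.3), no minimum fold, replicates 1 and 2 only, and each library left out. Some items are not reported here.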

Additional observations from a re-analysis of the deposited data

How the results depend on the processing

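In none of the 20 alternatives did a gene called in the comparison change sign or get called the other way. For most of them this was nearly fixed in advance. Other pseudocounts, filters and limits keep the same 6 libraries, and equal totals moved the median by less than the 1.5-fold limit. The count of genes called was 1447 to 2989 when 1 library was left out, with 565 to 1453 higher and 820 to 1536 lower; the highest came without starved replicate 1 and the lowest count of higher genes without glutamine-recovered replicate 1. With equal totals 2771 were higher and 339 lower, and with equal totals without RN7SL1 2193 were higher and 424 lower, since the scaling moves all genes. A minimum mean of 50, which tests fewer genes, gave 594 higher. With no minimum fold 3331 were called, 1912 of them lower. Replicates 1 and 2 only, with fewer samples, gave 861, of which 308 were higher and 553 lower. edgeR called 2141 and DESeq2 1669. Deviations of same-numbered libraries correlated at 0.0677, 0.1591 and -0.0674, so the numbers were not taken to pair the libraries, and not every library correlated best with its own number. With the replicate block 2270 genes were called, 1085 higher and 1185 lower, and 2104 of the 2107 calls were kept. Of 234 gene results named by the rule, 56 lost their call with equal totals, 74 after removal of the GC trend, 79 with replicates 1 and 2 only and none with the replicate block. At 3538017 to 6323628 reads and 3 libraries a group, simulated 1.5-fold changes were found in 28% of cases, and whether depth or the spread between libraries sets this was not tested.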
